A study of Mus musculus with 10 samples.

Results

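The 9 genes Dusp4, Cxcl12, Bmp1, Igf2bp2, Adamts9, Col8a1, Pmp22, Acta1 and Acta2 were examined in ChIP-seq site lists of mouse embryonic stem cells (ESCs), out of 22367 protein-coding genes of the GENCODE vM1 annotation. They are the genes without a homeobox that were selected on earlier readouts of Pcl3 knockdown, namely a listing as higher with Pcl3 shRNA on an expression array, or an amplicon for ChIP followed by PCR. The array of cells that were not pre-plated lists 6 of them (Acta2, Igf2bp2, Cxcl12, Bmp1, Adamts9 and Col8a1). The array of pre-plated cells, from which differentiated cells had been removed, lists 3 (Acta1, Acta2 and Pmp22), and Acta2 is the 1 gene on both. Acta1, Pmp22 and Dusp4 have an amplicon, and Dusp4 is on neither list of higher genes. Each gene was searched from 5 kb before its annotated start to 5 kb beyond its end for sites of 4 deposited lists. Since the genes were chosen on the same knockdown, their sites are described without a test.

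ChIP-seq sequences the DNA that is pulled down with an antibody. H3K27me3 and Suz12-TAP were each profiled in 1 library from cells with scramble shRNA and 1 library from cells with Pcl3-shRNA. These cells were ESCs of the genotype Suz12Suz12TAP/+, made from the BayGenomics gene trap line XG122, so 1 allele of Suz12 carries a tandem affinity purification (TAP) tag in the control cells as well, and anti-FlagM2 recognizes that tag. Pcl3-TAP was profiled with the same anti-FlagM2 in 2 libraries from E14 ESCs, 1 of the genotype Pcl3-TAP and Pcl3-wildtype-shRNA7 and 1 of Pcl3-TAP and Pcl3-wildtype-shRNA6. The tagged Pcl3 is not recognized by the shRNAs, so in those cells it is expressed while the wild-type transcript is targeted. With 4 input DNA libraries, the series holds 10 libraries. The 2 Pcl3-TAP libraries share 1 list of sites, so they cannot be compared with each other, and Pcl3 and Suz12 sites come from different cell lines. The lists hold a position and a p-value per site and no reads. The p-value is the peak caller's own, from the read difference between paired libraries, and counts no replicate. Hence the depth behind a site is not known from these files, and the level of Pcl3 itself cannot be checked here.

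PRC2 is the Polycomb complex that trimethylates lysine 27 of histone H3, with Ezh2 as the catalytic subunit and Suz12 and Eed as core partners. Pcl3 is a Polycomb-like protein that joins the complex as an accessory subunit. In ESCs, PRC2 and H3K27me3 lie mostly over CpG-rich starts of developmental genes that are silent or poised, and among these are genes of signalling, of the extracellular matrix and of differentiated muscle and nerve. The 9 genes cover several of those roles. Dusp4 encodes a phosphatase that inactivates MAP kinases, Cxcl12 a chemokine, and Bmp1 a secreted protease that cuts procollagens and frees BMP ligands from an antagonist. Igf2bp2 encodes an RNA-binding protein, Adamts9 a secreted protease of the matrix, and Col8a1 a short-chain collagen. Pmp22 encodes a membrane protein of peripheral myelin, Acta1 the actin of skeletal muscle, and Acta2 the actin of smooth muscle.

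The ChIP amplicons of Acta1 and Pmp22 are shown because they mark the DNA on which these genes were chosen. Each is given in mm9 on the strand of its gene, 5′ to 3′, with the primer sequences in capitals. Acta1 is shown as far as its last codon before the stop, without the UTR bases and the second primer (168 bp, chr8:126415912-126416079).
Acta1: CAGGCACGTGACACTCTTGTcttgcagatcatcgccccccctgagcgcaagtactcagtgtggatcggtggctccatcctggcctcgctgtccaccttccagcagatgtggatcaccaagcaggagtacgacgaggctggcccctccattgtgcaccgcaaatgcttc
Pmp22: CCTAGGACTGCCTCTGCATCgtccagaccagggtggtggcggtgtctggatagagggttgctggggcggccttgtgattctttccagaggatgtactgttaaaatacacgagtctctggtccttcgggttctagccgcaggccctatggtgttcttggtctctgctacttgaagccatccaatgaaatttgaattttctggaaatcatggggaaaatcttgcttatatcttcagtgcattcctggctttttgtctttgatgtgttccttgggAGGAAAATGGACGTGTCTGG
The Acta1 amplicon (chr8:126415857-126416079, minus strand) is 223 bp long and lies 2572 to 2794 bp after the gene start, centered on coding sequence at the far end of the gene. A Suz12 site that is also in the depleted list covers it, and an H3K27me3-depleted site overlaps it in part. The Pmp22 amplicon (chr11:62945328-62945619, plus strand) is 292 bp long and lies in an intron 2844 to 3135 bp after the gene start, inside a Suz12-depleted site. The nearest Pcl3 sites were 132 bp from the Pmp22 amplicon and 774157 bp from the Acta1 amplicon. Neither amplicon therefore shared a base with a Pcl3 site. Over their whole length they held 16 CpG (Acta1) and 7 CpG (Pmp22).

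For Cxcl12, Bmp1, Igf2bp2 and Adamts9, the 100 bp of the strongest site that hold most CpG, among windows with at most 30 UTR bases, are shown with CpG in capitals, since CpG-rich DNA is where PRC2 is usually found.
Cxcl12: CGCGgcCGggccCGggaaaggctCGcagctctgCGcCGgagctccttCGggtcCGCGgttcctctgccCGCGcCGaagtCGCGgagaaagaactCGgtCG
Bmp1: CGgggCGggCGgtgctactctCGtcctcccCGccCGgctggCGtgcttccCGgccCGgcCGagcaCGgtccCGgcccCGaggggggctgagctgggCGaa
Igf2bp2: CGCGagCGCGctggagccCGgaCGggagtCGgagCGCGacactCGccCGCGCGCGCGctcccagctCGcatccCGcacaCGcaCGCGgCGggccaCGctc
Adamts9: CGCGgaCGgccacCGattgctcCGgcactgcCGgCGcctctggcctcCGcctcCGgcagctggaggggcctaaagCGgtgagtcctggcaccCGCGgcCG
These windows lie at chr6:117118747-117118846 (Cxcl12, plus strand, 17 CpG), chr14:70920124-70920223 (Bmp1, minus strand, 14 CpG), chr16:22161935-22162034 (Igf2bp2, minus strand, 22 CpG) and chr6:92893644-92893743 (Adamts9, minus strand, 13 CpG). For the 2 genes with no site in any list, the richest 100 bp within 1000 bp of the gene start, chosen by the same rule, are shown for contrast.
Acta2: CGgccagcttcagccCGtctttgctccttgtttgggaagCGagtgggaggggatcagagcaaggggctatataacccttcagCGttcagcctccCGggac
Col8a1: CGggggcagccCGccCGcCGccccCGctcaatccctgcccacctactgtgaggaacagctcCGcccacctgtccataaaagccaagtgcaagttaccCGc
The Acta2 window (chr19:34329823-34329922, minus strand) held 5 CpG and the Col8a1 window (chr16:57754834-57754933, minus strand) held 7 CpG. Both counts are below those of the 4 windows taken from Suz12 sites. The DNA searched differed, however, being a whole site in one case and the surroundings of a gene start in the other. No such window was taken for Acta1 and Pmp22, so the contrast covers only the genes shown.

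Of the 9 genes, 7 had a Suz12 site in scramble cells, and Acta2 and Col8a1 had none. Among all protein-coding genes, 28.8% had a Suz12 site within the same limits. The same 7 genes had a site of the Suz12-depleted list, beside 20.7% of all genes, and this list comes from the contrast on which the genes were chosen. A Pcl3 site was found at 5 genes (Dusp4, Cxcl12, Bmp1, Igf2bp2 and Pmp22), beside 14.7% of all genes. The Suz12 and Pcl3 counts are not free of the choice either. The authors assayed Acta1, Pmp22 and Dusp4 as bivalent genes, which carry both H3K4me3 and H3K27me3. For these genes the share over all genes is no neutral background. An H3K27me3-depleted site, again from the contrast used for the choice, was found at 3 genes (Dusp4, Bmp1 and Acta1), beside 3.13% of all genes. Dusp4 and Bmp1 had sites of all 4 lists, as did 2.24% of all genes. That count of 2 fell to 1 (Bmp1) with 2 kb flanks or within 2 kb of the gene start, and to 0 with the gene body alone or at a p-value of at most 1e-12. The map of sites around the gene starts shows these 10 Suz12, 9 Suz12-depleted, 5 Pcl3 and 3 H3K27me3-depleted sites.

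**Figure D1:**
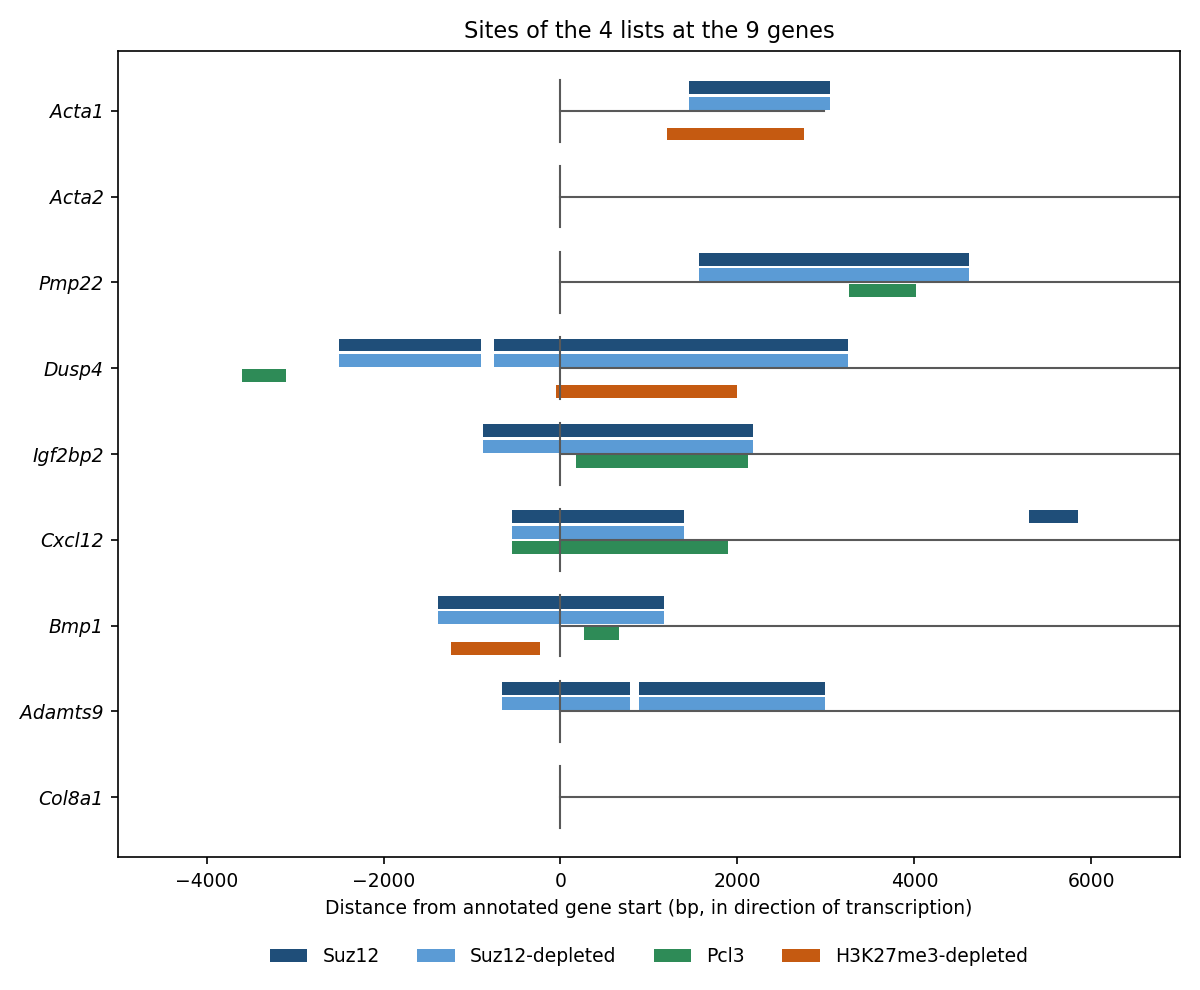
Sites of the 4 lists at the 9 genes, as horizontal bars, by distance in bp from the annotated gene start in the direction of transcription, where the vertical tick is the start and the thin line the gene body, drawn to the edge of the plot. Dusp4 and Bmp1 carry bars of every list, Acta1 and Pmp22 have their Suz12 bars downstream of the start (from 1451 and 1567 bp), and Acta2 and Col8a1 carry none.

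Dusp4 (chr8:35870351-35882948, plus strand) had the Suz12 site with the smallest p-value of the 9 genes. Here and below, strong and weak refer to the p-value of a site and not to occupancy. The main Suz12 site of Dusp4 ran from 750 bp before to 3249 bp after the gene start, with a p-value of 4.33e-272, and ranked 524 of 8876 Suz12 sites. At 4000 bp it was also the widest, and 3.83% of all Suz12 sites are at least as wide. A second Suz12 site lay 2500 to 901 bp upstream with a p-value of 1.00e-55, at rank 2813. Both are in the Suz12-depleted list. The H3K27me3-depleted site, with a p-value of 3.86e-16, covered the start and lay wholly inside the main Suz12 site. This site ranked 42 of 678, the highest rank of the 3 genes in that list. By the name of the list, its p-values are for the difference between scramble and Pcl3 shRNA. That could not be checked, since no list of H3K27me3 binding was available. The Pcl3 site was weak, with a p-value of 1.67e-08 and rank 4586 of 5242. It lay 3600 to 3101 bp upstream of the start and 600 bp beyond the nearer Suz12 site, so that no Pcl3 site overlapped Suz12 at Dusp4. Its sequence held 1.00 CpG per 100 bp, against 6.88 in the main Suz12 site.

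Cxcl12 (chr6:117118553-117131385, plus strand) had a Suz12 site from 552 bp before to 1397 bp after the start, with a p-value of 7.24e-159 at rank 1045. The Pcl3 site began at the same base and ended further downstream, at 1897 bp, with a p-value of 9.34e-89 at rank 682 of 5242, which makes it the strongest Pcl3 site among the 9 genes. All 3 annotated coding transcript starts of Cxcl12 fell inside both sites. A second, weak Suz12 site of 550 bp lay 5298 bp after the start, over sequence annotated as UTR, with a p-value of 6.84e-09 at rank 8167. It was the only Suz12 site of these genes outside the depleted list. Among the 502 Suz12 sites within 250 ranks of it, 4.18% were in the depleted list. No H3K27me3-depleted site was near Cxcl12, the closest being 707003 bp away.

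Bmp1 (chr14:70874364-70920067, minus strand) had a Suz12 site from 1383 bp before to 1166 bp after the start, with a p-value of 2.90e-122 at rank 1411, and the site is in the depleted list. Its Pcl3 and H3K27me3-depleted sites both lay wholly within this Suz12 site but were in the weaker part of their lists. The Pcl3 site covered 267 to 666 bp after the start with a p-value of 5.16e-08, at rank 4882 of 5242. The H3K27me3-depleted site covered 1233 to 234 bp before the start with a p-value of 4.46e-08, at rank 519 of 678. These 2 sites lay on opposite sides of the start with 500 bp between them. The Suz12 site also overlapped Sftpc, a gene of lung surfactant, whose own start was 2438 bp from the site.

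Igf2bp2 (chr16:22059082-22163372, minus strand) had a Suz12 site from 878 bp before to 2171 bp after the start, with a p-value of 8.72e-188 at rank 860, the second strongest of the 9 genes. The site is in the depleted list, was 3050 bp wide and covered both annotated coding transcript starts. The Pcl3 site lay from 172 to 2121 bp after the start, with a p-value of 3.10e-50 at rank 1107 of 5242, wholly within the Suz12 site. It covered the downstream of the 2 starts and not the upstream one. The nearest H3K27me3-depleted site was 363032 bp away. This Suz12 site was the richest in CpG of the 10, with 8.49 CpG per 100 bp.

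Adamts9 (chr6:92722693-92893486, minus strand) had 2 Suz12 sites of like strength, close to each other. The first covered the start, from 664 bp before to 785 bp after it, with a p-value of 8.75e-50 at rank 3042. The second lay from 886 to 2985 bp after the start, with a p-value of 7.37e-47 at rank 3176. Both are in the depleted list. No Pcl3 site lay within the gene or its flanks, the nearest being 66343 bp from the gene, and the nearest H3K27me3-depleted site was 9056793 bp away. A second coding transcript start, 42051 bp downstream, lay in no site.

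Pmp22 (chr11:62942484-62973049, plus strand) had a Suz12 site of 3050 bp with a p-value of 9.06e-150 at rank 1102, in the depleted list, but the site did not cover the annotated gene start. It began 1567 bp after it. Pmp22 has 4 annotated coding transcript starts, and the site covered the 3 that lie 2530, 3587 and 4086 bp downstream of the first. The DNA within 500 bp of the first start held 1.20 CpG per 100 bp, and at the 3 downstream starts the density was 4.40, 6.39 and 6.09. The Pcl3 site, with a p-value of 2.71e-16 at rank 2708 of 5242, lay wholly within the Suz12 site and covered the start at 3587 bp. Pmp22 is the 1 gene of the 9 on chromosome 11, which holds 29.2% of the H3K27me3-depleted sites and 10.4% of the Suz12 sites. No H3K27me3-depleted site was near Pmp22, the closest being 760702 bp away. The paper, however, names Pmp22 among the genes at which both Suz12 binding and H3K27me3 were decreased. Absence from the list thus does not show that Pmp22 kept the mark.

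Acta1 (chr8:126415669-126418651, minus strand) had a Suz12 site with a p-value of 1.00e-44 at rank 3276, the weakest among the strongest sites of the 7 bound genes. It lay at the far end of this short gene, from 1451 to 3050 bp after the start, and reached 68 bp beyond the gene end. Of its 1600 bp, 832 bp were coding exon, 457 bp intron and 243 bp UTR. The site is in the depleted list. The H3K27me3-depleted site, with a p-value of 4.49e-11 at rank 184 of 678, lay from 1201 to 2750 bp after the start and shared 1300 bp with the Suz12 site. The DNA of the Suz12 site held 5.62 CpG per 100 bp, against 2.00 within 500 bp of the gene start. The nearest Pcl3 site was 773969 bp from the gene. The site also overlapped Gm20388, a gene model that spans this locus, and lay 3823 bp from Nup133, a nuclear pore gene, but their starts were 40191 and 33386 bp from any Suz12 site.

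Acta2 (chr19:34315580-34329826, minus strand) and Col8a1 (chr16:57624371-57754850, minus strand) had no site in any list and were among the 15680 of the 22367 protein-coding genes without one. Acta2 lay 48130 bp from the closest Suz12 site, 218925 bp from the closest Pcl3 site and 218525 bp from the closest H3K27me3-depleted site. For Col8a1 the corresponding gaps were 74671 bp, 74721 bp and 14014271 bp. Both genes are listed as higher with Pcl3 shRNA on the array of cells that were not pre-plated, and Acta2 also on that of pre-plated cells. The lists hold only sites past the peak caller's threshold, so weaker binding at these genes was not detectable here.

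The p-value of the strongest Suz12 site differed widely among the 7 bound genes. The p-values of their strongest sites had −log10 values from 44.0 (Acta1) to 271 (Dusp4), with a median of 149, while the median over the strongest sites of all 6442 protein-coding genes with a Suz12 site was 35.8. Dusp4, Igf2bp2, Cxcl12, Pmp22 and Bmp1 lay among the strongest 20.9% of those genes, and Adamts9 and Acta1 at 41.9% and 44.8%. A p-value grows smaller with depth and with the width of a site, so it orders sites within a list and is no measure of occupancy.

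**Figure D2:**
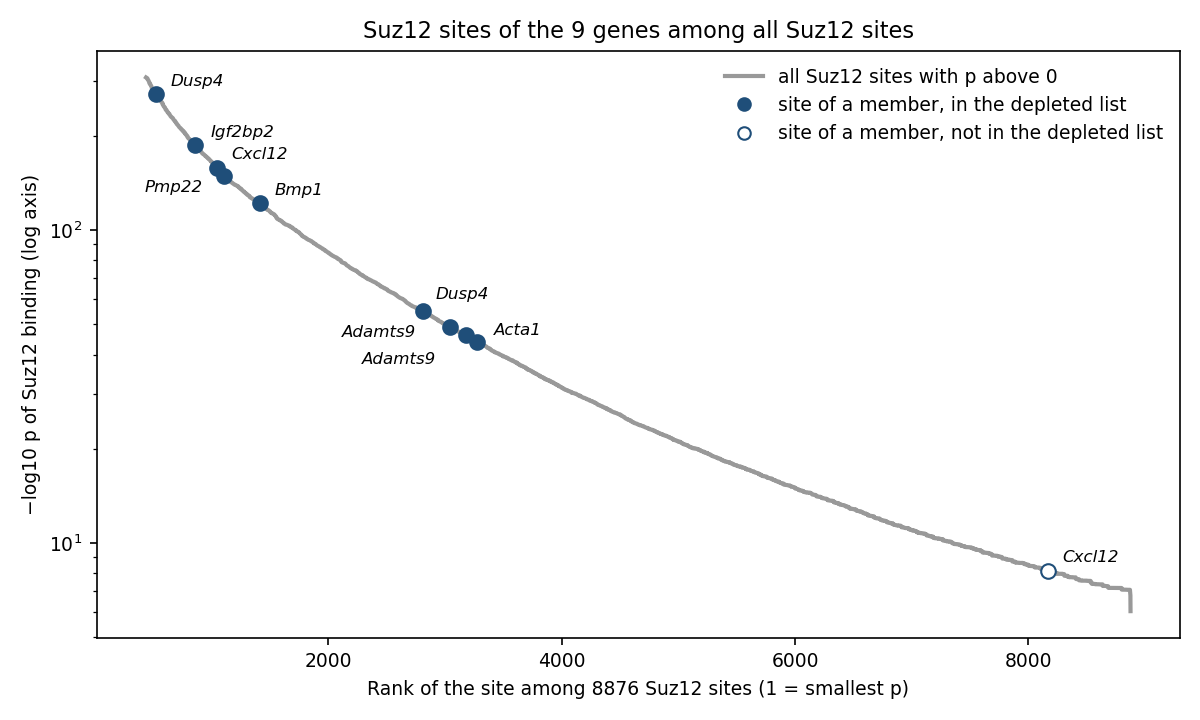
The −log10 p of Suz12 binding (log axis) against the rank of each site among the 8876 Suz12 sites, for sites with p above 0 (gray line), with the 10 sites of the members as points. Filled points are in the Suz12-depleted list, and the open point is the weak downstream site of Cxcl12 at rank 8167.

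The depleted list repeats the binding p-value of each of its 5722 sites, so how much Suz12 was lost at a member cannot be read from it. The paper itself reports decreased Suz12 binding at Acta1, Pmp22 and Dusp4. It also reports lower Suz12 mRNA and protein in cells with Pcl3 knockdown. Among genes with a Suz12 site, 71.7% had a depleted site, and among the 2888 genes whose strongest site was at least as strong as that of Acta1 the share was 99.5%. The listing of Dusp4, Cxcl12, Bmp1, Igf2bp2, Adamts9, Pmp22 and Acta1 as depleted is therefore what was found at nearly every gene bound so strongly. The shares for Pcl3 were 47.7% of all genes with a Suz12 site and 83.0% of those 2888 genes. Adamts9 and Acta1 were among the remaining genes, bound at least that strongly by Suz12 with no Pcl3 site. For H3K27me3-depleted sites the shares were 10.5% and 19.2%, against 3 of the 7 bound members.

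Where Pcl3 was found, its position relative to Suz12 differed among the genes. At Igf2bp2, Pmp22 and Bmp1 the whole Pcl3 site lay in the Suz12 site and made up 63.9%, 24.6% and 15.7% of its length. At Cxcl12 the whole Suz12 site lay in the Pcl3 site, and at Dusp4 they shared no base. The order by Pcl3 rank was Cxcl12, Igf2bp2, Pmp22, Dusp4 and Bmp1, whereas by Suz12 it was Dusp4, Igf2bp2, Cxcl12, Pmp22 and Bmp1. Dusp4, with the smallest Suz12 p-value, thus had one of the weakest Pcl3 sites. At the 3 genes with an H3K27me3-depleted site, it shared bases with a Suz12-depleted site each time, 2050 bp at Dusp4, 1300 bp at Acta1 and 1000 bp at Bmp1. This is the usual case. Over all protein-coding genes, 679 of the 700 with an H3K27me3-depleted site also had a Suz12 site, counted by gene and not by shared bases. Without replicates, the error of a single p-value and the precision of these orders are unknown.

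**Figure D3:**
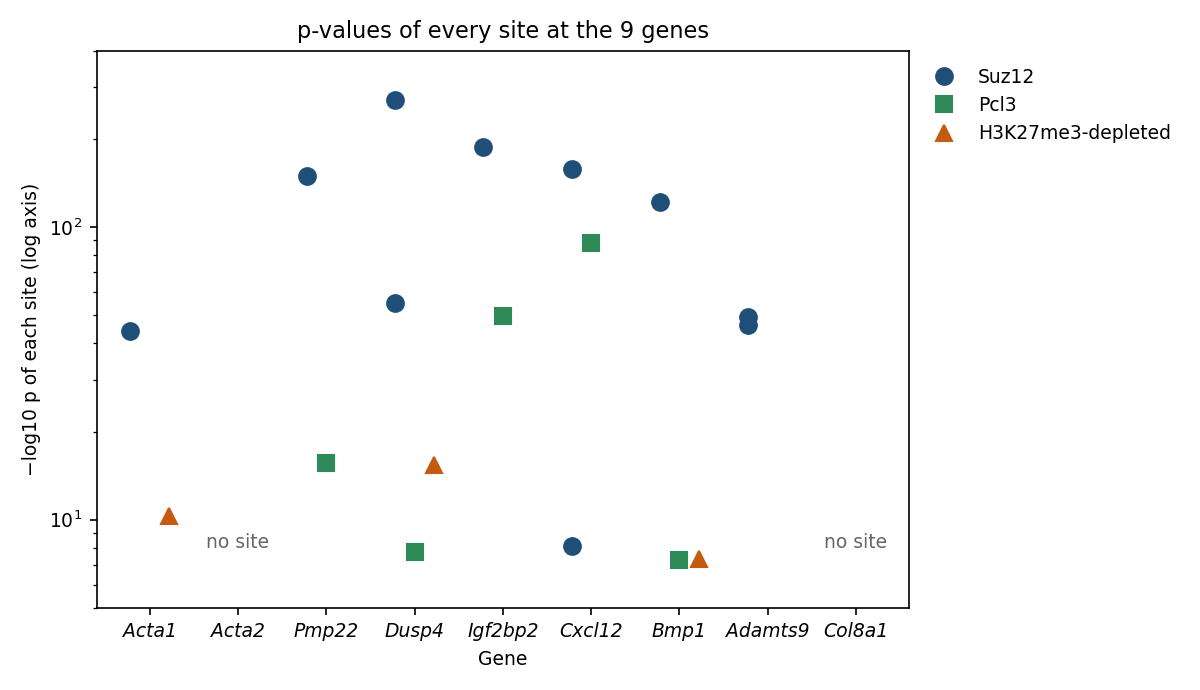
The −log10 p (log axis) of every site at each of the 9 genes, with circles for Suz12 binding, squares for Pcl3 binding and triangles for H3K27me3-depleted sites. By the name of their list, the triangles give the difference between scramble and Pcl3 shRNA. The lists are separate tests and are not compared with each other. Dusp4 is highest for Suz12 (271) and H3K27me3 (15.4), and Cxcl12 for Pcl3 (88.0).

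The CpG density at the annotated gene starts separated 2 groups. It was no criterion of the choice but is not free of it. The authors assayed Acta1, Pmp22 and Dusp4 as bivalent genes, and the paper places many bivalent domains at CpG islands. Within 500 bp of the annotated start, Igf2bp2 held 12.0 CpG per 100 bp, Bmp1 9.89, Dusp4 7.79, and Cxcl12 and Adamts9 7.59 each. Those 5 starts were covered by a Suz12 site. Col8a1 held 2.90, Acta1 2.00, Acta2 1.80 and Pmp22 1.20 CpG per 100 bp, and none of these 4 starts lay in a Suz12 site. Over 22364 protein-coding gene starts, the median was 5.99 for genes with a Suz12 site and 2.50 for genes without one. Pmp22 and Acta1 thus had low density at the start and their Suz12 site further downstream, over DNA with 4.33 and 5.62 CpG per 100 bp. The median over all Suz12 sites was 5.41. For Pmp22 the grouping rests on the first start, since its downstream coding starts, inside the Suz12 site, held 4.40, 6.39 and 6.09.

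**Figure D4:**
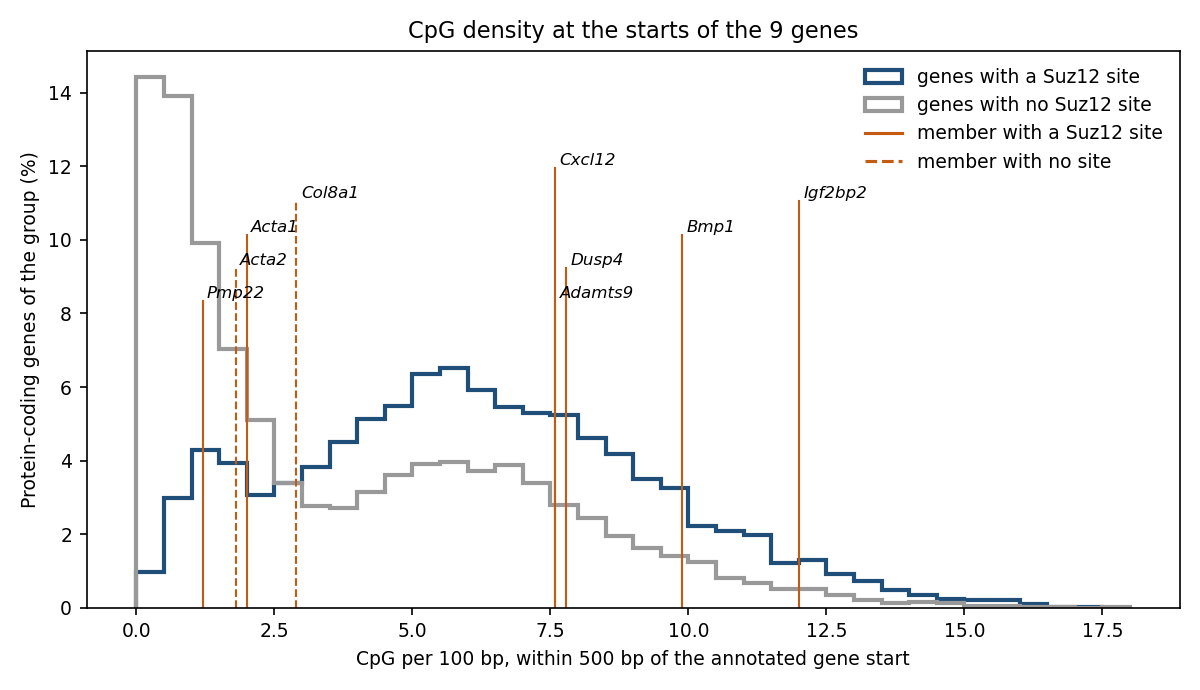
CpG per 100 bp within 500 bp of annotated gene starts. The steps give the percent of protein-coding genes with (blue) and without (gray) a Suz12 site, and the vertical lines the 9 genes, solid with and dashed without a site, with heights chosen only to place the names. The starts of Igf2bp2, Bmp1, Dusp4, Cxcl12 and Adamts9 lie at 7.59 or above, and those of Col8a1, Acta1, Acta2 and Pmp22 at 2.90 or below.

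The motif GCGCGC, which reads the same on both strands, was counted with overlapping matches included. It occurred within 500 bp of the start at Igf2bp2 (5 matches), Adamts9 (2), Dusp4, Cxcl12 and Bmp1 (1 each), and at none of the other 4 starts. It occurred at 31.6% of all gene starts, and at 50.6% of those of genes with a Suz12 site. The 100 bp of Igf2bp2 shown above held 4 matches, and the other sequences shown above none. Over whole Suz12 sites, which differ in width, the site of Igf2bp2 held 10 matches and that of Pmp22 6. At least 1 match was found in 7 of the 10 sites, beside 52.5% of all Suz12 sites. With so few sites, 7 is near that share. All of the 10 but the weak Cxcl12 site were also wider than the median Suz12 site (1100 bp), and a wider site has more sequence to match.

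For each bound gene, 1 other protein-coding gene was found whose presence in the 4 lists was the same and whose p-values were closest, by the summed difference of log10 of −log10 p over the lists that held it. For Dusp4 this was Plec, with a p-value of 3.92e-252 for Suz12, 9.80e-11 for Pcl3 and 7.49e-13 for H3K27me3, out of 335 genes in all 4 lists with p above 0. For Bmp1 it was Spock2 (1.97e-117, 4.72e-09 and 2.09e-08 in the same order). For Cxcl12 it was Cachd1 (1.38e-159 for Suz12 and 3.42e-85 for Pcl3), for Igf2bp2 it was Fam123a (1.62e-187 and 1.37e-52), and for Pmp22 it was Hrh3 (1.79e-153 and 2.37e-16). For Acta1 it was Fam50b (1.32e-46 for Suz12 and 1.24e-11 for H3K27me3), and for Adamts9, on the Suz12 p-value alone, Gpr139 (8.66e-50). The sums cover different numbers of lists and candidate genes, so they are not compared between members.

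Relatives of the 9 genes were examined in 11 lists of families and pathways with 67 genes, of which 39 had a Suz12 site, 33 a Suz12-depleted site, 21 a Pcl3 site and 2 an H3K27me3-depleted site. The shares over all protein-coding genes were 28.8%, 20.7%, 14.7% and 3.13%, in the same order. The relatives are not wholly apart from the choice, since Adamts1 and Igf2bp3 are themselves listed as higher with Pcl3 shRNA on an array. The MAP kinase phosphatases related to Dusp4 had Suz12 sites at 8 of 9 genes. The strongest of these was at Dusp8 (p-value 1.99e-113), followed by Dusp5 (2.84e-58) and Dusp2 (6.60e-51), all with a Pcl3 site. None of these 9 relatives had an H3K27me3-depleted site, beside 3.13% of all genes and 10.5% of genes with a Suz12 site. With so few genes, finding none is near either share. Among genes that dampen ERK signalling through Sprouty and Spred proteins, 4 of 6 had a Suz12 site, led by Spry1 (1.81e-33). All 4 p-values were larger than those of both Suz12 sites of Dusp4.

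Both tolloid proteases related to Bmp1 had a Suz12 site, Tll1 with a p-value of 5.79e-167 and a Pcl3 site, and Tll2 with 5.02e-86 and none. Of 18 other Adamts proteases, 13 had a Suz12 site, 11 a depleted site and 9 a Pcl3 site. Adamts2, on chromosome 11, was the 1 member of this family in all 4 lists, and its p-value is written as 0. Adamts5 (2.26e-194), Adamts8 (2.29e-126), Adamts19 (1.74e-119) and Adamts15 (1.47e-116) followed, each with a Pcl3 site. Adamts7 (3.67e-68) and Adamts17 (3.01e-80) were depleted without a Pcl3 site, as was Adamts9 itself.

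Of the 4 genes listed as receptors of Cxcl12 or nearest chemokines, 2 had a Suz12 site. Cxcr4, a receptor of Cxcl12, had a Suz12 site of nearly the same p-value as its ligand (2.57e-157) and a Pcl3 site, and the chemokine gene Cxcl14 (3.99e-163) was in all 4 lists. Ackr3, also a receptor of Cxcl12, and Cxcl13 had no site of any list. Of the other short-chain collagens, Col8a2, whose product is the partner of Col8a1, had a Suz12 site (4.76e-127), a depleted site and a Pcl3 site, while Col8a1 had none. Igf2bp3 had a Suz12 site (7.18e-25) outside the depleted list. Igf2bp1, named after its values were seen, had a Pcl3 site and no Suz12 site. In the Pmp22 family, Emp2 alone of 4 genes had a Suz12 site (1.59e-43), and among 5 myelin genes Mbp alone (3.92e-81).

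Of the 4 other actin genes, Actb had a weak Suz12 site (p-value 1.03e-12), and Actc1, Actg1 and Actg2 had none, as had Acta2. Contractile genes of smooth and skeletal muscle had Pcl3 sites at 0 of 11 genes. The shares were 14.7% of all genes and 47.7% of genes with a Suz12 site. With so few genes, finding none is near the share over all genes. Suz12 sites were found at 5 of the 11 contractile genes, beside 28.8% of all genes. The intermediate filament gene Des (1.40e-53) was the strongest, followed by Myocd (1.89e-29), a coactivator of smooth muscle genes, Myh3 (5.69e-24), Ckm (4.87e-16) and Cnn1 (1.79e-10). Of these, all but Cnn1 were in the depleted list. Only Des had a Suz12 site at least as strong as that of Acta1. The bars of the related lists show these counts.

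**Figure D5:**
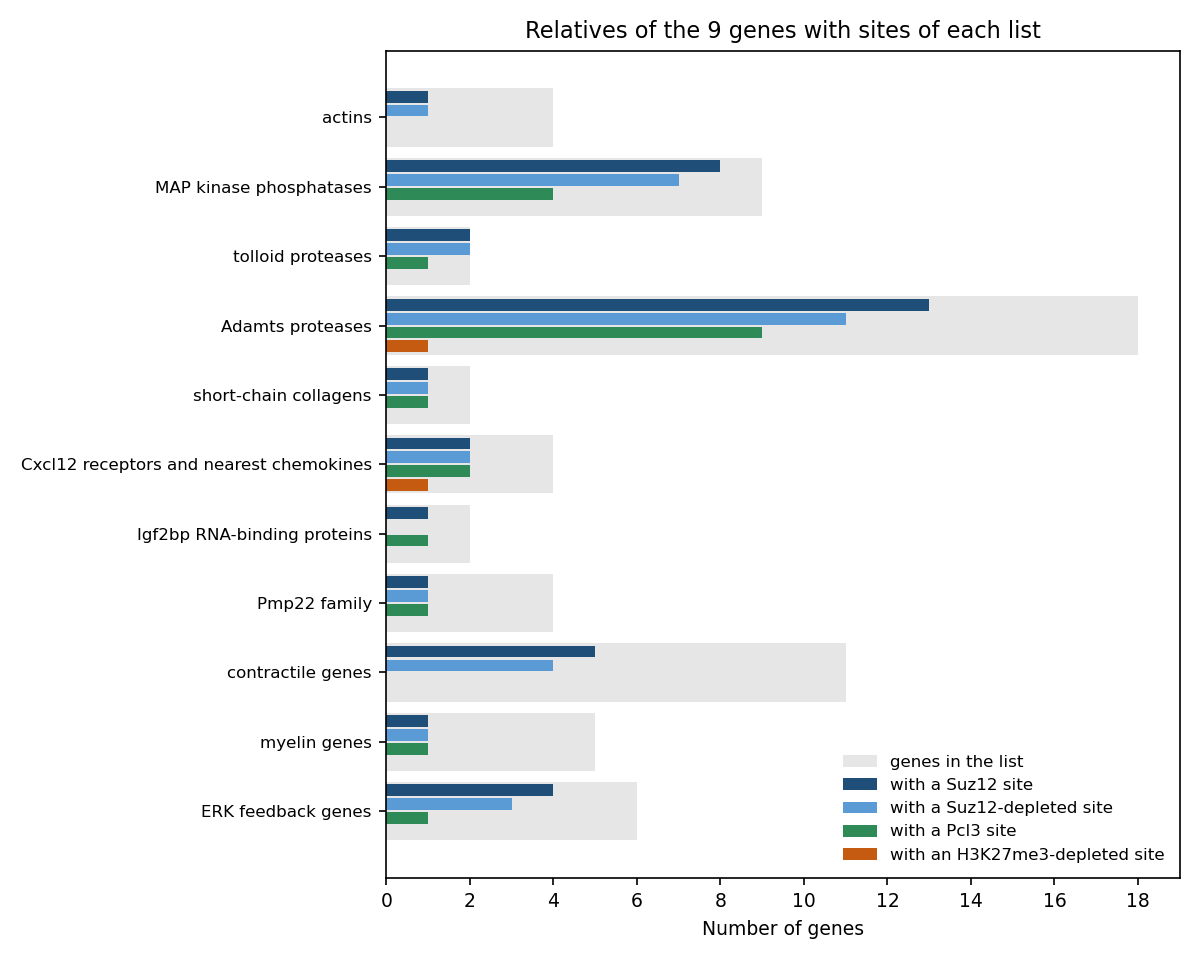
Number of genes in each of 11 lists of relatives of the 9 genes (gray) and number with a site of each of the 4 site lists (colored). The MAP kinase phosphatases have Suz12 sites at 8 of 9 genes. The 4 actins and 11 contractile genes have no Pcl3 site, which in lists so short is near the 14.7% of all genes.

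The arrays from which 8 of the 9 genes were taken list 104 symbols as higher with Pcl3 shRNA, of which 99 matched a gene in the annotation, the 8 included. Of the other 91, 48 had a Suz12 site (52.7%), 41 a depleted site (45.1%), 33 a Pcl3 site (36.3%) and 9 an H3K27me3-depleted site (9.89%). Of the 8 members, 6 had a Suz12 site, 6 a depleted site, 4 a Pcl3 site and 2 an H3K27me3-depleted site. Acta2 and Col8a1 thus fell with the 43 other listed genes that had no Suz12 site.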

How the data were processed

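The 10 libraries gave 4 deposited lists of sites. The authors aligned single-end reads to mm9 with Bowtie (version not given in the sources used here), kept unique alignments, equalized the background of paired libraries, compared read counts window by window under a Skellam null model and merged the windows that passed. The only measured unit is the p-value that the authors deposited for each site, which is written as 0 at 435 Suz12 and 208 Pcl3 sites. Unique alignment leaves out repeated sequence, and the scaling assumes equal background on every chromosome. Whether the 2 Pcl3-TAP libraries were pooled is not given in the sources used here. The label of 1 input library gives its knockdown as Pcl3-shRNA in the title and Pcl3-shRNA6 elsewhere.

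Site starts were converted to 1-based positions. A site was assigned to a gene when it shared at least 1 bp with the gene body plus 5 kb on each side (GENCODE vM1, whose genome is mm9). Shares over all protein-coding genes were computed in the same way. No test was run, since each condition has 1 library, apart from Pcl3-TAP and its input with 2, and the genes were chosen on the same knockdown. The members and lists were chosen with earlier results of these data known. The genes named are the 9 members, related genes with a Suz12 site, and genes sharing a member's Suz12 site or matching it most closely by p-value. Igf2bp1, Actc1, Actg1, Actg2, Ackr3 and Cxcl13, which have no Suz12 site, were named after their values were seen. Sequence windows were limited to at most 30 UTR bases. The windows of Acta2 and Col8a1, the 2888 genes bound at least as strongly as Acta1 and the 250 ranks around the weak Cxcl12 site were added after the data were seen. Array lists served for names only, matched also by synonyms. Alternatives were the gene body alone, flanks of 2 or 10 kb, 2 kb around the gene start, a p-value of at most 1e-12 and site centers. The overlap functions were tested on simulated data, with 0 of 500 queries wrong. Python 3.11.15, numpy 2.4.6, pysam 0.24.0, samtools 1.23.1 and matplotlib 3.10.9 were used. Reads per library, which the study reports, and input signal were not analysed here. One ChIP amplicon is not reported here.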

Additional observations from a re-analysis of the deposited data

How the results depend on the processing

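The counts of members with a site were recomputed under 6 alternatives for each of the 4 lists, 24 counts in all. The 7 members with a Suz12 site and the 7 with a Suz12-depleted site were the same genes under all 6. Of the other counts, 3 differed from the main count by more than 1.5 times. Members with a Pcl3 site numbered 3 within 2 kb of the gene start (Igf2bp2, Cxcl12 and Bmp1) and 3 at a p-value of at most 1e-12 (Pmp22, Igf2bp2 and Cxcl12), against 5. Members with an H3K27me3-depleted site numbered 1 at a p-value of at most 1e-12 (Dusp4), against 3. The share of all protein-coding genes under those settings was 11.6% and 10.3% for Pcl3 and 0.630% for H3K27me3. Members in all 4 lists, a count added after seeing the data, numbered 0 with the gene body alone and at a p-value of at most 1e-12, 1 with 2 kb flanks and 1 within 2 kb of the gene start, against 2. Leaving out a replicate was not possible with these lists, and no paired analysis was possible because the results come from no test. The lists give no reads, so absence of a site at Acta2, Col8a1 or of Pcl3 at Adamts9 and Acta1 says only that none passed the threshold of the list. The same holds for absence of an H3K27me3-depleted site at Pmp22, Cxcl12, Igf2bp2 and Adamts9.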
